A study of Sus scrofa with 61 samples.

Results

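The genes examined here make, sense and answer glucocorticoids, the steroid hormones of which cortisol is the main one in pigs: the receptor gene NR3C1, the enzymes HSD11B1 and HSD11B2, and the hormone-responsive genes FKBP5, TSC22D3, ZBTB16, KLF9, PER1, DUSP1 and SGK1. Probes were chosen by name, as those whose symbol on the array, or in the study's own additional gene lists, was 1 of these 10 genes. The rule found 35 probes for 9 of the 10 genes among 42436 probes kept for testing on the array. Of these, 34 carried the symbol on the array (11 for KLF9, 7 for HSD11B1, 5 for FKBP5, 4 for NR3C1, 2 each for DUSP1 and SGK1, and 1 each for HSD11B2, PER1 and ZBTB16), and 1 further FKBP5 probe was named only in the study's lists, which hold probes that the study selected on these same fetuses. TSC22D3 had no probe by this rule, and 2 probes that the array design describes as TSC22 domain family protein 3 are given beside the others, outside all counts.

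RNA of longissimus muscle, the long muscle of the back, was hybridised to 61 one-colour arrays, 1 for each male fetus, delivered by caesarean at 90 days (d90) or 110 days (d110) of gestation. The fetuses were purebred Large White (LW), purebred Meishan (MS), LWMS from MS sows and LW boars, or MSLW from LW sows and MS boars; Meishan is a Chinese breed with a low piglet mortality and Large White a European breed selected for lean growth. At d90 each genotype had 8 fetuses, and at d110 there were 9 LW, 7 MS, 8 LWMS and 5 MSLW fetuses. Sows were inseminated with mixed semen of both breeds, so litters held fetuses of more than 1 genotype. The labels do not name the sow, and fetuses of a litter therefore enter the tests as independent. Littermates share gestational age and sow breed, so standard errors of comparisons by age or sow breed can be too small. Between 34346 and 45683 probes per array lay well above the local background. The 8 slides held 6 to 8 of the 8 groups each, so age and genotype were compared within as well as across slides. The skeletal muscle markers ACTA1, CKM, MYLPF, TNNT3 and DES had mean normalized log2 signals of 18.8, 18.3, 18.8, 18.0 and 18.0, near the top of the scale, while the sixth marker, MB (myoglobin), had 9.32.

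Cortisol enters cells and binds the glucocorticoid receptor, which moves to the nucleus and switches on or represses target genes. Before it reaches the receptor, the hormone passes 2 enzymes with opposite action: HSD11B1 regenerates active cortisol from inactive cortisone, and HSD11B2 inactivates cortisol. Fetal plasma cortisol rises in the last part of gestation in pigs and other farm animals and prepares lung, liver, gut and muscle for birth. FKBP5, ZBTB16, TSC22D3, KLF9, PER1, DUSP1 and SGK1 are well-known direct targets of the receptor in many cell types. Cortisol itself was not among the values analysed here.

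Selected probes follow as the array design gives them, 5′ to 3′, with their start in the transcript except for ZBTB16. Each is 60 bases long. Those of ZBTB16 and HSD11B2 are the sole probes of their genes. The brightest probes of FKBP5, HSD11B1 (start 1285) and NR3C1 (start 3187), which gave the main values of these genes, are not among them. The FKBP5 probes listed come from 3 separate stretches of 1 transcript, so their agreement does not rest on a shared sequence. The 2 HSD11B1 probes share 17 bases, given in capitals, and are therefore not separate readings of the transcript. The 2 NR3C1 probes are shown because they gave different values between breeds, and the ZBTB16 probe because it is the sole probe of that gene and is listed under a human transcript.
FKBP5, start 614: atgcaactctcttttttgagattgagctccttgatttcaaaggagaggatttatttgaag
FKBP5, start 797: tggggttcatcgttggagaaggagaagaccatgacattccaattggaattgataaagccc
FKBP5, start 979: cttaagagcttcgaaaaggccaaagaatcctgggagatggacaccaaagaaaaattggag
ZBTB16, sole probe: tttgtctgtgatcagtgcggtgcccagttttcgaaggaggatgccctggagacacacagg
HSD11B1, start 769: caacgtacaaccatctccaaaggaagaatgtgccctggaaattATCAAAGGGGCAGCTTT
HSD11B1, start 812: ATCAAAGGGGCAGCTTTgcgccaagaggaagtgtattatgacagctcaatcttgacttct
HSD11B2, start 960: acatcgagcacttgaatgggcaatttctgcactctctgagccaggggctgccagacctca
NR3C1, start 605: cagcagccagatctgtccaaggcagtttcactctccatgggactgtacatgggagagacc
NR3C1, start 2007: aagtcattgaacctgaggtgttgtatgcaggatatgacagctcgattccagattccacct

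Between d90 and d110 most of these genes changed together. On the brightest probe of each gene, HSD11B1 and the targets FKBP5, ZBTB16, KLF9, PER1 and DUSP1 rose in all 4 genotypes. NR3C1 and HSD11B2 fell in all 4 on theirs. Of the 34 array-named probes, 27 rose and 5 fell in the age change averaged over the 4 genotypes (limma, Benjamini-Hochberg adjusted p below 1%), against 37.3% of all kept probes that rose and 35% that fell. Probes of 1 gene are not independent counts, and KLF9, HSD11B1 and FKBP5 had 11, 7 and 5 of the 34. By gene, on the brightest probe, 6 of 9 rose and 3 fell. This stage of gestation is one of broad change in muscle, since 72.3% of all kept probes passed the threshold in 1 direction or the other, so the count alone says little here. The median age change, with its sign, was 1.72 on the log2 scale over the 34 probes and 0.04 over all kept probes. Over all kept probes 15827 rises and 14837 falls offset each other in that median, so it does not give the size of a typical change. Among LW fetuses 30 of 34 probes changed (45.3% of all kept probes), among MS fetuses 31 (56.7%), among LWMS fetuses 32 (50.9%) and among MSLW fetuses 30 (44.6%). By gene these were 8, 8, 9 and 8 of 9, in the same order. In what follows a level is a normalized log2 signal, a change is a difference of such levels, 1 unit is a doubling, and for each gene the values are those of its brightest array-named probe unless another is named. Signals of different probes are not set against each other, because probes differ in how brightly they hybridise.

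**Figure D1:**
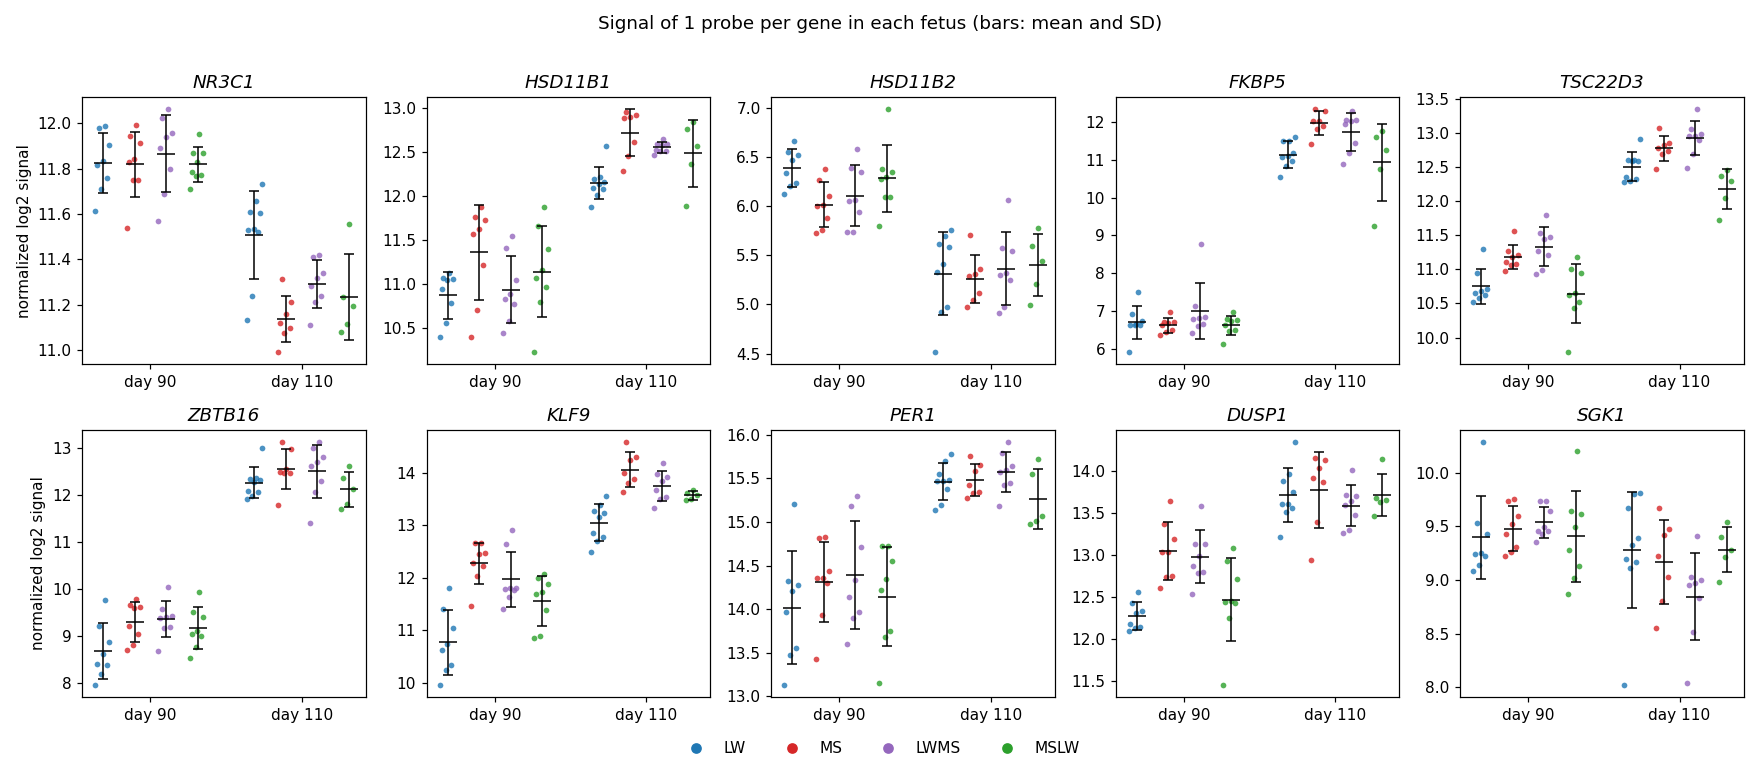
Normalized log2 signal (vertical axis, a scale of its own in each panel) of 1 probe per gene in each of the 61 fetuses, by gestational day (horizontal axis) and genotype (colour), with the mean and SD of each group. FKBP5, ZBTB16, KLF9, TSC22D3 and HSD11B1 lie higher at d110 than at d90 in every genotype. NR3C1 and HSD11B2 have lower means at d110 in every genotype, with overlap of the ages in LW for NR3C1 and in LWMS for HSD11B2. The SGK1 groups overlap. The TSC22D3 probe was found by its description only.

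FKBP5 showed the largest change of the set. It encodes FKBP51, a co-chaperone that binds the receptor complex and lowers its affinity for cortisol, and its induction is a classical readout of receptor activity. At d90 its log2 signal ran from 5.90 over a median of 6.64 to 7.50 in LW, from 6.35 over 6.65 to 6.97 in MS, from 6.42 over 6.80 to 8.77 in LWMS and from 6.13 over 6.69 to 6.98 in MSLW. At d110 it ran from 10.5 over 11.1 to 11.6 in LW, from 11.4 over 12.03 to 12.3 in MS and from 10.9 over 11.99 to 12.3 in LWMS. The 5 MSLW fetuses at d110 had 9.26, 10.8, 11.3, 11.6 and 11.8. The lowest d110 fetus thus lay above the highest d90 fetus, and each of these end values came from 1 fetus that lay more than 1 unit from the nearest of its group. The signal rose 26.2-fold on average (log2 change 4.71 ± 0.13 SE, adjusted p = 1.55e-38, n = 61). By genotype it was 5.35 in MS, 4.74 in LWMS, 4.44 in LW and 4.31 in MSLW. The other 4 array-named FKBP5 probes rose by 4.66 to 4.90. In order of size, the rise of the brightest FKBP5 probe stood 13th among the 42436 kept probes, and all 5 array-named FKBP5 probes stood among the first 15. The probe known from the study's lists was kept through its d110 signals alone: it was well above background on 33 of 61 arrays and in none of the 8 MSLW fetuses at d90, so that only a bound can be given, a rise in MSLW of at least 15.9-fold, against the lowest signal well above background on each array. On each of the 8 slides, the mean over d110 fetuses exceeded that over d90 fetuses, by 4.28 to 5.09.

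ZBTB16 followed. It encodes PLZF, a zinc finger transcription repressor that glucocorticoids induce strongly in many tissues. Over all genotypes its log2 signal ran from 7.95 over a median of 9.18 to 10.04 in the 32 fetuses at d90 and from 11.4 over 12.4 to 13.1 in the 29 fetuses at d110, without overlap. The average rise was 3.25 ± 0.12 (9.49-fold, adjusted p = 6.52e-33), with 3.60 in LW, 3.26 in MS, 3.16 in LWMS fetuses and 2.97 in MSLW, and stood 97th in order of size among all kept probes. TSC22D3 encodes GILZ, a leucine zipper protein that carries part of the anti-inflammatory action of glucocorticoids. The brighter of its 2 probes ran from 9.78 over 10.997 to 11.8 at d90 and from 11.7 over 12.6 to 13.3 at d110, and only the lowest d110 fetus fell among the d90 values. It rose 3.07-fold (1.62 ± 0.07, adjusted p = 6.17e-29), and the dimmer probe, which was well above background on 46 of 61 arrays, rose by 1.94.

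KLF9 is a Krüppel-like transcription factor that also responds to thyroid hormone, another hormone that rises before birth. At d90 its log2 signal ran from 9.96 over 11.8 to 12.9, and at d110 from 12.5 over 13.6 to 14.6. The lowest LW fetus at d110 lay below the highest LWMS fetus at d90, whereas within each genotype all d110 fetuses lay above all d90 fetuses. The average rise was 1.96 ± 0.11 (3.89-fold, adjusted p = 4.23e-24), and all 11 KLF9 probes rose, by 1.84 to 2.45. The probes at starts 4201, 4225, 4256 and 4284 overlap each other in sequence and count as 1 reading.

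PER1, a clock gene with a receptor binding site in its promoter region, and DUSP1, a phosphatase that switches off MAP kinases, rose less. PER1 ran from 13.1 over 14.3 to 15.3 at d90 and from 14.98 over 15.5 to 15.9 at d110. The d90 fetuses were widely spread and the d110 fetuses close together: the SD within groups was 0.46 to 0.65 at d90 and 0.18 to 0.34 at d110. The average rise was 1.23 ± 0.11 (2.35-fold, adjusted p = 1.26e-14). DUSP1 ran from 11.5 over 12.7 to 13.6 at d90 and from 12.9 over 13.6 to 14.3 at d110, and rose by 1.01 ± 0.09 (2.01-fold, adjusted p = 1.03e-15), with 1.09 on its other probe. Both rose on all 8 slides.

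SGK1, a kinase that regulates ion channels and is induced by glucocorticoids and mineralocorticoids in kidney and other tissues, was the exception among the targets. Its log2 signal ran from 8.87 over 9.44 to 10.3 at d90 and from 8.02 over 9.20 to 9.81 at d110, with wide overlap. Its average change was -0.31 ± 0.10 (adjusted p = 0.0028). The test was passed in LWMS (-0.69, adjusted p = 0.000983) and not in LW (-0.12), MS (-0.31) or MSLW (-0.12). The second SGK1 probe changed by -0.24 on average, short of the threshold (adjusted p = 0.0214), and by -0.76 in LWMS. Whether LWMS differs from the other genotypes in this was not tested.

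**Figure D2:**
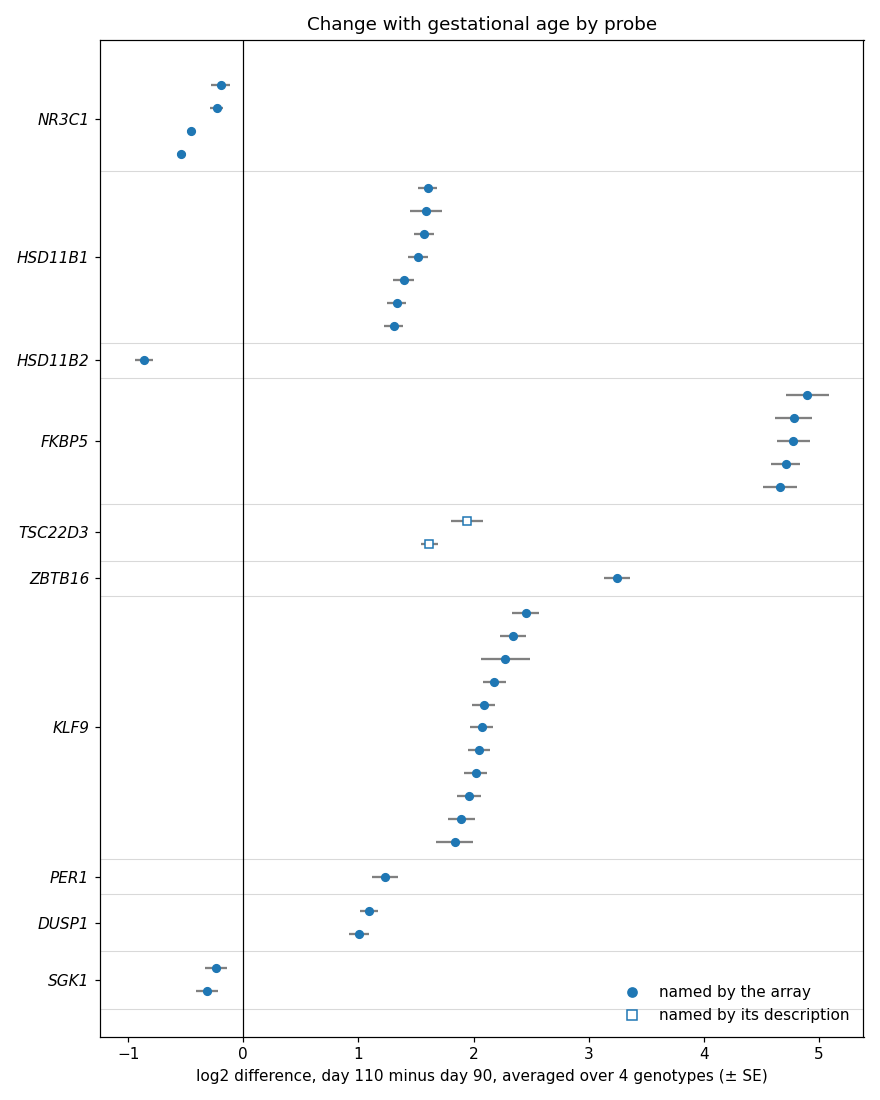
Log2 difference between d110 and d90, averaged over the 4 genotypes (horizontal axis, with SE), for each array-named probe and both TSC22D3 probes (rows, by gene). Probes of 1 gene fall close together, with FKBP5 between 4.66 and 4.90, KLF9 between 1.84 and 2.45 and HSD11B1 between 1.31 and 1.60, while NR3C1, HSD11B2 and SGK1 lie below 0.

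The enzymes moved in opposite directions. HSD11B1 ran from 10.2 over 11.1 to 11.9 at d90 and from 11.9 over 12.5 to 12.96 at d110, and within each genotype all d110 fetuses lay above all d90 fetuses. It rose by 1.40 ± 0.09 (2.63-fold, adjusted p = 9.05e-21), and its 7 probes rose by 1.31 to 1.60. Of these, O9336 and the probe at start 105 share 58 bases and count as 1 reading. HSD11B2 ran from 5.72 over 6.22 to 6.98 at d90 and from 4.51 over 5.32 to 6.06 at d110. It fell by 0.86 ± 0.08 on the log2 scale, to 0.549 times the d90 signal (adjusted p = 1.37e-14), with changes of -1.08 in LW, -0.88 in MSLW, -0.76 in MS and -0.74 in LWMS. HSD11B2 rests on 1 probe, well above background on 59 of 61 arrays, and after normexp background correction its change was -0.38. The slide means of HSD11B1 rose on 8 of 8 slides and those of HSD11B2 rose on none.

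NR3C1 encodes the receptor itself, which lowers its own transcript in many cell types. It ran from 11.5 over 11.8 to 12.1 at d90 and from 10.99 over 11.2 to 11.7 at d110. The change was small and tight: -0.54 ± 0.04 on average (0.688 times, adjusted p = 4.88e-19), with -0.68 in MS, -0.58 in MSLW, -0.57 in LWMS and -0.32 in LW. The probes O9499 and at start 2007 changed by -0.46 and -0.23, past the threshold, and the probe at start 605 by -0.20, which missed it (adjusted p = 0.0284) but passed with slide in the model (-0.19, adjusted p = 1.81e-05), and fell on 8 of 8 slides. Within single genotypes all 4 probes had changes below 0, but only 2 passed in LW, 2 in LWMS, 2 in MSLW and 3 in MS. In LW the changes ran from -0.32 to -0.07. In the same fetuses the 6 fibroblast markers COL1A1, COL1A2, COL3A1, DCN, LUM and PDGFRA all fell with age, with a median change of -1.49, and their mean log2 signal ran from 14.15 to 14.6 over the d90 fetuses and from 12.3 to 13.5 over the d110 fetuses. None of the 6 was at background throughout a group. In whole muscle, fewer cells of a type and less RNA per cell cannot be told apart, and the part of the fibroblast markers in the NR3C1 change was not tested. Of the 6 muscle markers 4 rose and 1 fell, with a median change of 0.23, and of the 5 leukocyte markers 2 fell, with a median of -0.22. The endothelial markers had 1 rise and 3 falls of 5 and a median of -0.98, the adipocyte markers 2 rises and 3 falls of 6 (-0.16), the erythroid markers 1 rise and 1 fall of 3 (-0.19), and the Schwann cell markers 2 rises of 3 (0.45). Their part in the changes of the other genes was not tested either.

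Meishan and Large White fetuses were compared at each age, since the breeds differ in piglet survival at birth. At d90, 10 of the 34 array-named probes were higher in MS and none was lower (12.8% of all kept probes differed). These were 7 KLF9 probes, both DUSP1 probes and 1 HSD11B1 probe. At d110, 12 probes were higher in MS, namely 6 for HSD11B1, 4 for KLF9 and 2 for FKBP5, and 3 probes, all for NR3C1, were lower. Over all kept probes 29% differed at d110, with 13.7% higher and 15.2% lower in MS.

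At d110 HSD11B1 was 1.48-fold higher in MS (0.57 ± 0.18, adjusted p = 0.00807): LW fetuses ran from 11.9 over 12.1 to 12.6 and MS fetuses from 12.3 over 12.9 to 12.96, and MS lay higher on each of the 6 slides that held both. With slide in the model this probe had 0.53 and an adjusted p of 0.0129, short of the threshold. The other 5 probes that passed had 0.69 to 0.76 without slide and 0.64 to 0.73 with it. These 5 are not separate readings: O9336 and the probe at start 105 share 58 bases, and those at 769 and 812 share 17. The seventh probe, at start 1127, had 0.30 without slide and 0.44 with it, neither past the threshold. FKBP5 was 1.78-fold higher in MS at d110 (0.83 ± 0.25, adjusted p = 0.00549), on 5 of 6 slides. Its 4 other array-named probes had differences of 0.77 to 1.27, 1 of which passed the threshold. At d90 FKBP5 had a difference of -0.08 (adjusted p = 0.884), and the difference between the breeds in the age change, 0.91 ± 0.35, did not pass (adjusted p = 0.0702).

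NR3C1 ran in the other direction at d110, 0.774 times as high in MS as in LW (-0.37 ± 0.08, adjusted p = 6.99e-05) and lower on 6 of 6 slides, while at d90 the breeds had means of 11.8 each. Its probe O9499 passed the test of the difference in age change itself (-0.41 ± 0.10, adjusted p = 0.00224); this was the sole array-named probe of the set to do so (5.95% of all kept probes). The brightest probe had -0.36 there (adjusted p = 0.0152), and passed once slide was in the model (-0.39, adjusted p = 0.00684). The probe at start 605 had a difference of 0.20 at d110, and of 0.05 ± 0.08 with slide in the model, neither past the threshold, with MS higher on 3 of 6 slides. The fibroblast markers moved the same way as the other NR3C1 probes: 5 of 6 were lower in MS at d110, with a median difference of -0.99, and their part in the NR3C1 difference was not tested.

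KLF9 had a difference above 0 between MS and LW on 10 of its 11 probes, 7 of them past the threshold at d90, and its size depended on the probe. At d90 the brightest probe ran from 9.96 over 10.7 to 11.8 in LW and from 11.5 over 12.4 to 12.7 in MS, a difference of 1.51 ± 0.21 (2.85-fold, adjusted p = 8.61e-08), and at d110 the difference was 1.01 ± 0.21 (2.01-fold, adjusted p = 8.92e-05). The probes at start 2928 and 3148 of the same transcript gave 1.47 and 1.48 at d90 and 1.30 and 1.37 at d110. The overlapping probes at 4201 to 4284 gave 0.61 to 0.66 at d90 and 0.33 to 0.40 at d110, where none passed. The dim probes at starts 261 and 453 had mean signals of 4.97 and 4.97 in LW and 5.72 and 5.72 in MS at d90. At d110 these were 7.52 and 7.37 in LW and 8.25 and 7.86 in MS. The probe O14257 had the opposite sign, with -0.25 at d90 and -0.78 at d110, neither past the threshold. Its first 11 bases, GCATCAGAGCT, are the reverse complement of the first 11 bases, AGCTCTGATGC, of the probe at 2928; its position in a pig transcript was not checked. What sets the KLF9 probes apart between breeds was not tested.

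**Figure D3:**
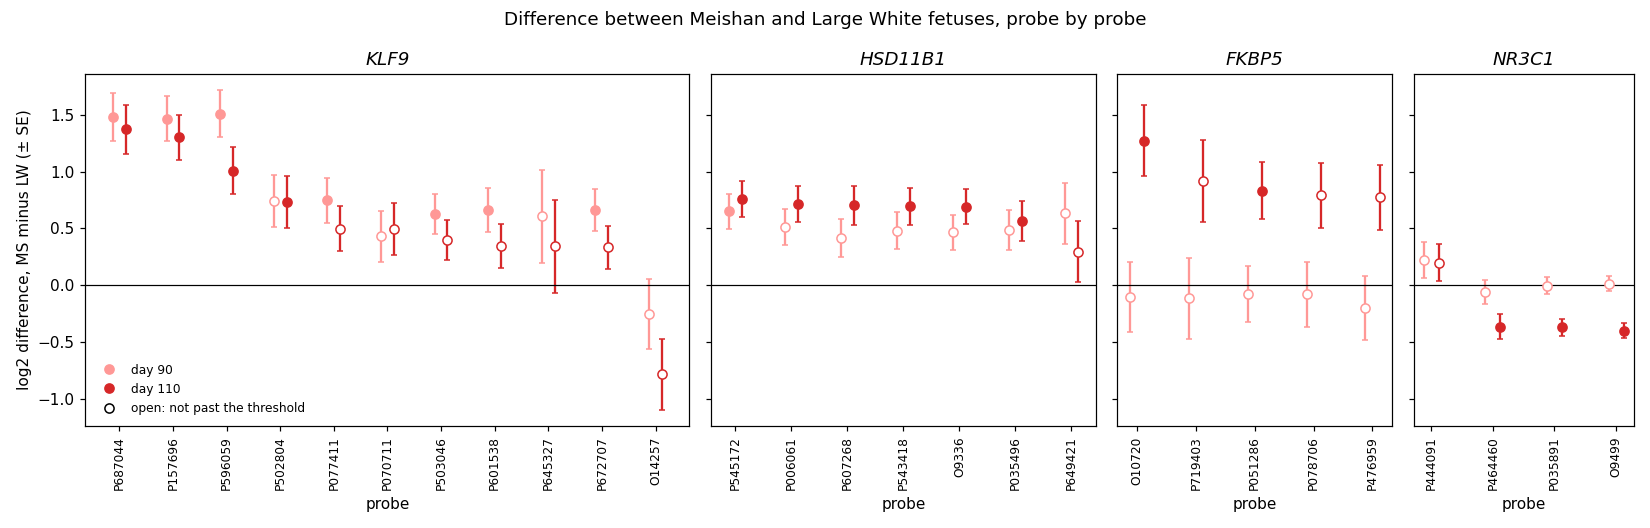
Log2 difference between MS and LW fetuses (vertical axis, with SE) at d90 and d110 for each array-named probe of KLF9, HSD11B1, FKBP5 and NR3C1 (horizontal axis; A_72_ is left out of the probe names), filled where past the 1% threshold. The KLF9 differences at d90 fall around 1.5 for 3 probes and between 0.43 and 0.75 for 7, with O14257 below 0; FKBP5 and NR3C1 probes lie between -0.20 and 0.01 at d90 except for the NR3C1 probe P444091 at 0.22.

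DUSP1 differed at d90: it was 1.71-fold higher in MS (0.77 ± 0.17, adjusted p = 0.000401). LW fetuses ran from 12.1 over 12.2 to 12.6 and MS fetuses from 12.6 over 13.04 to 13.6, and the 2 groups just failed to overlap on this probe. On the other DUSP1 probe they overlapped, with LW up to 12.09 and MS from 12.07. At d110 the difference on the brightest probe was 0.06. The breed difference in the age change itself did not pass (-0.71, adjusted p = 0.0368). In the model of parental genotypes, the age change was smaller in fetuses of MS sows by 0.69 ± 0.17 (adjusted p = 0.00799), that is 0.73 in MS and 0.61 in LWMS against 1.44 in LW and 1.24 in MSLW. It was the sole array-named probe to pass that test (3.05% of all kept probes); the other DUSP1 probe had -0.57 (adjusted p = 0.0203). Without MSLW fetus 3 at d110, no probe passed. Fetuses of a litter share gestational age and sow breed, so without a sow term the SE of that test can be too small. ZBTB16, PER1, SGK1 and HSD11B2 did not pass a breed test at either age; their differences at d110 were 0.29, 0.02, -0.11 and -0.05, with standard errors of 0.22, 0.22, 0.19 and 0.16.

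The reciprocal crosses, which have 1 parent of each breed and differ in which breed was the dam, were compared at each age. None of the 34 array-named probes passed at d90 or at d110 in limma, where 0.5% and 0.912% of all kept probes did. At each age 5 of them had an unadjusted p under 0.05. The share of all kept probes under that cutoff was not counted, so these counts cannot be weighed. The brighter TSC22D3 probe did pass: it was lower in MSLW than in LWMS by 0.69 ± 0.13 at d90 (adjusted p = 0.00127) and by 0.74 ± 0.15 at d110 (adjusted p = 0.0023). TSC22D3 is an X-linked gene, and male fetuses carry the X chromosome of the dam. At d90 its median was 11.4 in LWMS and 11.1 in MS, and 10.7 in LW and 10.6 in MSLW; at d110 it was 12.96 in LWMS and 12.8 in MS, and 12.6 in LW and 12.3 in MSLW. The 2 genotypes with MS sows thus stood above the 2 with LW sows at both ages, although MS and LW themselves did not differ past the threshold (0.43 at d90, adjusted p = 0.0167; 0.27 at d110, adjusted p = 0.113). The dimmer TSC22D3 probe had -0.44 and -0.51 between the crosses, neither past the threshold. In these crosses the X chromosome and mitochondria of the dam, the Y chromosome of the sire, parent-of-origin effects and the carrying sow change together. Their parts in the TSC22D3 difference cannot be told apart, and none was tested.

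No array-named probe of the set passed in the comparison of crossbreds with the mean of the 2 pure breeds at d90 or d110, where 0.0495% and 0.0778% of all kept probes did; 3 probes at d90 and 0 at d110 had an unadjusted p under 0.05. Nor did any pass for a dependence of the age change on paternal genotype, where 0.462% of all kept probes did and 2 array-named probes had an unadjusted p under 0.05. For the unadjusted counts of both comparisons, the share of all kept probes was not counted.

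Other genes of the pathway were read from 5 lists, with 1 probe per gene, to be set beside the 37.3% of all kept probes that rose and the 35% that fell. The receptor chaperones and co-regulators were split: of 18 measured of 20, 6 rose and 9 fell with age, and the median change was -0.05. FKBP4, a co-chaperone that works against FKBP5 and helps the receptor enter the nucleus, rose by 1.17 and was the largest, followed by falls of DNAJB1 (-0.77), a heat shock co-chaperone, and of NR3C2 (-0.74), the mineralocorticoid receptor, and rises of the chaperone partners BAG1 (0.65) and PPID (0.55). Of the 8 measured of 14 genes of steroid supply and transport, 2 rose and 3 fell. CYP11A1, the enzyme that starts steroid synthesis, rose by 0.58 from a dim signal, and SERPINA6, which encodes the cortisol-binding globulin of plasma, fell by 0.35, with HSD17B11 (-0.39), STS (-0.37) and HSD3B1 (0.32) as the others of largest change.

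Of the further glucocorticoid-responsive genes, 24 were measured of 28, of which 18 rose and 3 fell, with a median change of 1.07. The largest were a fall of 2.81 in MSTN, which encodes the muscle growth inhibitor myostatin, and rises of 2.49 in PDK4, a kinase that shifts muscle from glucose to fat oxidation, 2.46 in CEBPD and 1.92 in CEBPB, a pair of transcription factors, and 2.12 in LPIN1, a regulator of lipid metabolism. Of the 13 clock genes measured of 16, 10 rose and 1 fell (median 0.38): NR1D1 rose by 2.46, RORA by 1.48, ARNTL by 0.97, BHLHE40 by 0.97 and CRY2 by 0.62. Of the 10 immediate early genes measured of 16, 6 rose and 0 fell (median 0.35), with ATF3 at 1.25, BTG2 at 0.94, KLF4 at 0.63, MYC at 0.60 and EGR1 at 0.40. Between MS and LW at d110, where 29% of all kept probes differed, 2 of 18, 2 of 8, 4 of 24, 2 of 13 and 1 of 10 genes of these lists did, in the same order.

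**Figure D4:**
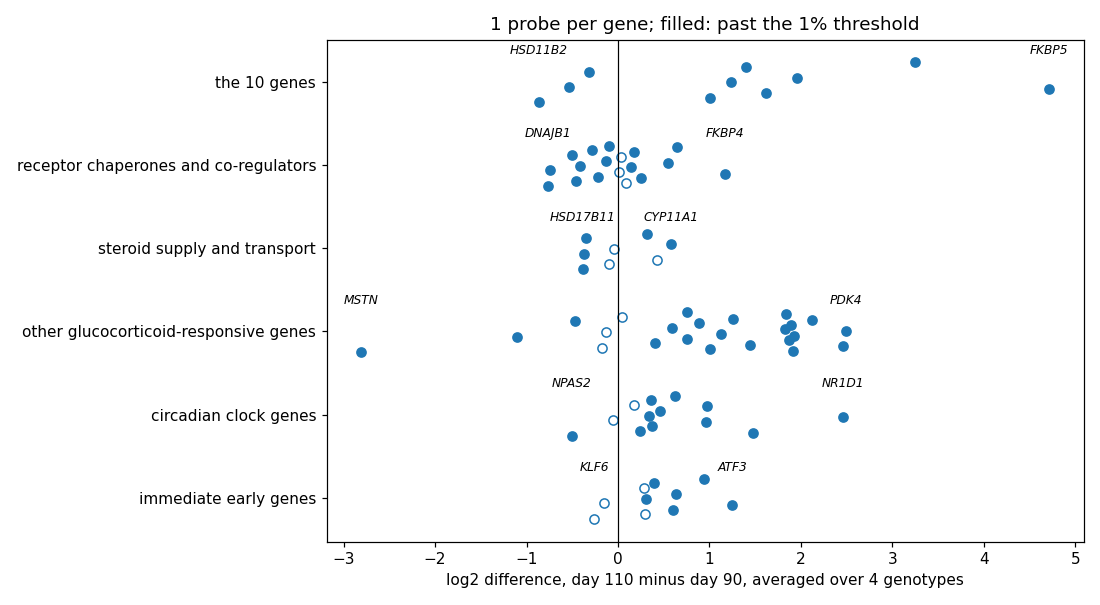
Log2 difference between d110 and d90, averaged over the 4 genotypes (horizontal axis), of 1 probe per gene for the 10 genes and for 5 further lists (rows, points spread vertically for legibility), filled where past the 1% threshold. The other glucocorticoid-responsive genes had a median of 1.07 with MSTN at -2.81 and PDK4 at 2.49, and the chaperones and co-regulators lay on both sides of 0.

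Fetuses of 1 group also differed from each other, and some genes of the set varied together. After the group and slide means were removed, the 3 genes most like each member over the 61 fetuses were sought among 8571 other named genes; the values are descriptions, and the points share RNA sample and array. PER1 was most like GLUL (r = 0.81), KLF15 (0.80) and CEBPB (0.76), all in the list of other glucocorticoid-responsive genes. KLF9 was most like GADD45A (0.82), also in that list, PER1 (0.76) and KLF13 (0.74). FKBP5 was most like EGLN3 (0.67), ABHD4 (0.65) and PNPLA2 (0.65), and ZBTB16 like WDR45 (0.73), ART3 (0.66) and ABHD4 (0.66). TSC22D3 came with PDXK (0.72), ZFAND5 (0.70) and WHAMM (0.69), DUSP1 with ADAMTS1 (0.62), STC1 (0.60) and ADM (0.55), and SGK1 with KLF2 (0.74), TBCB (0.59) and TERF2 (0.58). The receptor and the enzymes kept other company: NR3C1 was most like DAB2 (0.70), MARCKSL1 (0.67) and SLC39A1 (0.66), HSD11B1 like MRPL41 (0.59), TNNT3 (0.58) and KRT19 (0.51), and HSD11B2 like DNAJC4 (0.61), ANXA6 (0.61) and SLC2A13 (0.60). Among the 45 pairs within the set the median r was 0.03, and the highest after KLF9 with PER1 were TSC22D3 with ZBTB16 (0.61), FKBP5 with TSC22D3 (0.54) and FKBP5 with ZBTB16 (0.53), while the lowest was FKBP5 with NR3C1 (-0.56).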

How the data were processed

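For each fetus the authors deposited an Agilent scanner file of spot intensity values, beside a joint table of log2 values, which the authors had quantile normalized and filtered on background; per the labels these came from Agilent Feature Extraction 10.10.1.1 and limma. From the scanner files, spots marked as non-uniform were removed (4 to 802 per array; 1 spot of the genes described), processed signals were quantile normalized and log2 transformed, and 42436 probes well above background on 80% of the arrays of at least 1 group were kept. No spot of these genes was saturated. Groups of age and genotype, and parental genotypes with age, were fitted in limma 3.58.1 (R 4.3.3) with moderated two-sided tests and Benjamini-Hochberg adjustment over all kept probes; the threshold was 1%. The number of arrays limits the precision, and a sow effect could not be fitted. The script was tested on simulated data. Rows of the deposited table follow the order of spots in the scanner files (correlation per array 0.978 to 0.993), and the table served as an alternative. All 13 probes with a pig RefSeq accession matched the pig gene table under the same symbol. The symbols of the other probes rest on the array design, so those of FKBP5, PER1, ZBTB16, DUSP1 and TSC22D3 were not checked against a pig sequence. For KLF9 only the probes at starts 261 and 453 were among those matched, and the brightest was not. O9336, O9499 and O10149, of HSD11B1, NR3C1 and SGK1, were not matched either. The genes and lists were chosen with earlier results of these data known. All members were named; of the other lists, the 5 genes with the largest averaged age change past the threshold. Promoter motifs were not analysed here.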

Additional observations from a re-analysis of the deposited data

Results flagged for a closer look

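In 5 of 80 combinations of gene and group, 1 fetus stood apart from the rest of its group by the ratio of gap to range (4 fetuses in all), and chance gives about 1 in 20. The LWMS fetus 6 at d90 had an FKBP5 log2 signal of 8.77, against 6.42 to 7.13 in the other 7. That fetus was also the highest of its 8 in ZBTB16, TSC22D3, KLF9, PER1 and DUSP1, and the lowest in NR3C1. Without it, the averaged FKBP5 change was 4.78. The LW fetus 1 at d110 had 12.6 for HSD11B1, against 11.9 to 12.2 in the others, and 13.01 for ZBTB16, against 11.9 to 12.4; it was also the highest of 9 in FKBP5 and PER1. In SGK1 the LW fetus 8 at d90 had 10.3, against 9.09 to 9.53. It was the lowest of its group in FKBP5, HSD11B1, KLF9, PER1 and NR3C1, and the highest in HSD11B2. The LW fetus 9 at d110 had 8.02 for SGK1, against 9.12 to 9.81. It was also the lowest of its group in NR3C1, KLF9 and DUSP1, and the highest in HSD11B2.

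The age change differed between groups of fetuses in 2 tests, each passed by 1 of 34 array-named probes, a share below that of all kept probes (5.95% between breeds and 3.05% by maternal genotype). The NR3C1 probe O9499 fell more in MS (-0.63) than in LW (-0.22), with a difference of -0.41. DUSP1 rose less in fetuses of MS sows, with a difference of -0.69. Neither test held a sow term.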

How the results depend on the processing

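The averaged age change of each gene kept its direction and its side of the threshold under every alternative in which it could be computed; HSD11B2 had no value where a probe had to be above background on all arrays. FKBP5 ran from 4.14 (normexp) to 4.82, and HSD11B2 from -0.89 to -0.38. No value past the threshold, in the report or under an alternative, changed direction; of differences not past it, the signs of MS minus LW at d90 for NR3C1 (-0.02 to 0.01), at d110 for HSD11B2 (-0.05 to 0.01) and PER1 (-0.04 to 0.28), and of the breed difference in age change for PER1 (-0.29 to 0.03) were not stable. The count of array-named probes with a breed difference (MS against LW) in age change, 1 in the report, was 2 with the median signal, with normexp, with slide as a block and with LW and MS fetuses only. The count for age by maternal genotype, also 1, was 2 with the median signal, the deposited values and normexp, and 0 with 75th percentile scaling and without a filter. Leaving out each MSLW fetus at d110 in turn, or LWMS fetus 6 at d90 (an alternative chosen after seeing the data), gave counts of 32 to 32 for the averaged age change, 30 to 30 in MSLW, 32 to 32 in LWMS, 0 to 1 for age by maternal genotype (0 without MSLW fetus 3) and 0 to 0 for the reciprocal crosses, the comparison with the mid-parent and age by paternal genotype. Of single genes, MS minus LW at d110 fell short for HSD11B1 without a filter (0.57, adjusted p = 0.0119) and with slide as a block, and for KLF9 on the probe of smallest residual SD (0.40, adjusted p = 0.0675). The NR3C1 change in LW fell short with 75th percentile scaling (-0.20, adjusted p = 0.0165). With LW and MS fetuses only, MS minus LW at d90 passed for TSC22D3 (adjusted p = 0.0034) and the breed difference in age change for FKBP5 (adjusted p = 0.009). The cause was not tested. No paired analysis was possible because the labels number fetuses without tying them across groups.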
